A study of Mus musculus with 16 samples.

Results

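The genes described here are 10 transcripts better known from epithelial and carcinoma cells than from leukocytes: the simple epithelial keratins Krt7, Krt8, Krt18 and Krt19, the Hippo pathway effectors Yap1, Wwtr1 and Tead1, and the membrane receptors Ptk7, Met and Egfr. They were chosen by symbol, taking for each gene the probe set annotated with that symbol alone, or, for Tead1, which had 2 such probe sets, the one with the higher mean over all arrays. All 10 were found among 19938 genes with a single-symbol probe set. The choice of genes was made with earlier results on these arrays known, so their differences between groups are given as a description.

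The arrays measured RNA of CD11b+ dendritic cells, that is, cells sorted from mouse lung for CD11c, MHC class II and CD11b. The 8 arrays labelled tumoral are of cells from lung tumours, and the 8 labelled peritumoral are of cells from the lung tissue around them. All mice were C57BL/6 and carried Lewis lung carcinoma (LLC) cells, a mouse lung cancer line of the same strain, placed in the airways. No tumour-free lung, sorted LLC cells or unsorted tissue was analysed here, and no label gives the animals' age or sex, the animal behind an array, or whether animals were pooled.

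Keratins form the intermediate filaments of epithelial cells, in which the type II keratins Krt7 and Krt8 pair with the type I keratins Krt18 and Krt19, and Krt8 with Krt18 is the pair typical of simple epithelia. In the Hippo pathway a kinase cascade phosphorylates YAP (encoded by Yap1) and TAZ (encoded by Wwtr1) and keeps them out of the nucleus. When the cascade is off, both proteins enter the nucleus and activate transcription through TEAD factors such as Tead1, which bind DNA themselves. Ptk7 is a catalytically inactive receptor of planar cell polarity and Wnt signalling, Met is the receptor of hepatocyte growth factor, and Egfr is the receptor of epidermal growth factor.

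On GRCm38.p6, the keratin genes Krt7 (101412403 to 101427806), Krt8 (101996711 to 102004342) and Krt18 (102028216 to 102032026) lie on chromosome 15, and Krt19 lies on chromosome 11 at 100140810 to 100145926. The end of Krt8 and the start of Krt18 are 23873 bases apart, with 2 annotated genes between them. Yap1 lies on chromosome 9 (7931999 to 8004638), Wwtr1 on chromosome 3 (57455644 to 57575910) and Tead1 on chromosome 7 (112679356 to 112906784). Ptk7 lies on chromosome 17 (46564451 to 46630049), Met on chromosome 6 (17463349 to 17573980) and Egfr on chromosome 11 (16752203 to 16913907).

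The 250 bases before a start site listed by RefSeq are shown for 2 pairs of genes whose values went together between arrays, Yap1 with Wwtr1 and Krt8 with Krt18. For Yap1, whose listed start lies within the gene span given above, only the 208 bases outside that span are printed, without the 42 bases next to the start. The sequences are RefSeq's on GRCm38.p6, read 5′ to 3′ on the strand of the gene. Capitals mark every match to 4 sets of letters that were searched for on both strands: GGAATG or CATTCC, the core bound by TEAD factors; GGGCGG or CCGCCC, the GC box; TGANTCA, the letters bound by AP-1; and CAGGTG or CACCTG, the E-box bound by Snail and Zeb factors.
Yap1, minus strand, chr9:8004639-8004846: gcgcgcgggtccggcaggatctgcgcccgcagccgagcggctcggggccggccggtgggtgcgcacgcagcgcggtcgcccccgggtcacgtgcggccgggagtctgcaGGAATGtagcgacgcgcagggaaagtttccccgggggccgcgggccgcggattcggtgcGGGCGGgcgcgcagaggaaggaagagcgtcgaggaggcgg
Wwtr1, minus strand, chr3:57575911-57576160: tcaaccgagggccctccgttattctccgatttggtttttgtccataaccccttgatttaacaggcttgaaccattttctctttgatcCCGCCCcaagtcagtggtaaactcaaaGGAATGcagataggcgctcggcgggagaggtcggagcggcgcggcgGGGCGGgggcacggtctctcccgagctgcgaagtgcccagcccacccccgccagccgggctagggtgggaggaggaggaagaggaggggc
Krt8, minus strand, chr15:102004343-102004592: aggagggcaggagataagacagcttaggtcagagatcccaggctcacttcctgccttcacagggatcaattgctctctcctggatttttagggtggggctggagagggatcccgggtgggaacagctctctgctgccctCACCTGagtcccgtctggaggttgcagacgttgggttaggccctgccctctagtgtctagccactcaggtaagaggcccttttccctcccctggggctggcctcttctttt
Krt18, plus strand, chr15:102027966-102028215: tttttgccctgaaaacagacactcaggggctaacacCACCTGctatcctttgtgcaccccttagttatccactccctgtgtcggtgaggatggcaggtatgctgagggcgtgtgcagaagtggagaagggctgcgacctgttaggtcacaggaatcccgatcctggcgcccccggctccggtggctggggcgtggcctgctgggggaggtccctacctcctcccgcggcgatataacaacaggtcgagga

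RefSeq promoter entries were matched for 8 of the 10 genes, all except Krt19 and Tead1. The Yap1 window of 250 bases holds GGAATG once, 141 bases before its listed start, and 2 GC boxes, of which 1 is in the bases printed. The Wwtr1 window likewise holds GGAATG once, 136 bases before the start, with 2 GC boxes, and a second Wwtr1 start, inside the gene span, has the same match 170 bases before it. The Krt8 and Krt18 windows hold no TEAD letters and no GC box, and each has CACCTG once, 111 bases before the Krt8 start and 214 bases before the Krt18 start. Among the other windows, Ptk7 holds CATTCC 101 bases before its listed start and Met holds TGAGTCA 54 bases before its listed start; both of these windows lie within the gene spans given above, so they are not upstream of the whole gene. Krt7 holds CACCTG 44 bases before its start. The Krt7, Met and Ptk7 windows also hold 4, 3 and 1 GC boxes, and the Egfr window holds 1 GC box and no other match. No 2 matches share a base. Of 32851 RefSeq promoters of the same length, 12.6% hold the TEAD letters, 32.7% the GC box, 6.75% the AP-1 letters and 17.2% the E-box, so each is a common string, and a match is only a match of letters.

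Some arrays stood apart from others with the same label, which bears on every result below. Arrays were correlated over the 2000 most variable genes after each gene was centred on its mean over the 16 arrays. A negative value thus means opposite deviations from that mean. Tumoral 1, 4 and 7 and peritumoral 3 and 6 correlated with one another at 0.59 to 0.92, across the labels, and with the other arrays at -0.80 to 0.47. Peritumoral 4 was the highest array for marker lists of several other lung cell types: its mean level was 10.86 for 13 endothelial genes, against 6.96 to 7.08 in tumoral arrays and 6.999 to 8.72 in the other peritumoral arrays. The array medians ran from 6.75 in tumoral 4 to 6.95 in peritumoral 4. The sorting genes were similar in both groups, with Itgax (CD11c) at 11.62 ± 0.08 in tumoral and 11.47 ± 0.24 in peritumoral arrays, Itgam (CD11b) at 11.31 ± 0.25 and 11.22 ± 0.50, with H2-Ab1 (MHC class II) at 13.25 ± 0.08 and 13.21 ± 0.13 (SD, n = 8 each). The leukocyte gene Ptprc (CD45) averaged 11.75 ± 0.18 in tumoral and 11.61 ± 0.23 in peritumoral arrays.

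Values are log2 expression as deposited, and within each label they are given in deposited order, 1 to 8. A level below refers to 1 probe set and is compared only with the same probe set in other arrays. No detection calls were available, so a level near the array median cannot be told from background. In RNA from sorted bulk cells, a difference in the number of cells carrying a transcript and a difference in RNA per cell cannot be told apart. The differences are tumoral minus peritumoral, with limma's standard error (SE).

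Among the keratins, Krt8 and Krt18 shared 1 pattern. Krt8 was 7.76, 7.41, 7.64, 7.55, 7.30, 7.40, 7.43 and 7.39 in tumoral 1 to 8, against 7.80, 7.77, 8.86, 8.91, 7.85, 8.73, 7.43 and 7.74 in peritumoral 1 to 8. Peritumoral 3, 4 and 6 stood at least 0.88 log2 units above every other array, and the remaining peritumoral arrays lay within or slightly above the tumoral range. The group means were 7.49 ± 0.15 in tumoral and 8.14 ± 0.59 in peritumoral arrays (SD, n = 8 each), a difference of -0.65 (SE 0.197), the largest of the 10 genes. Without peritumoral 3, 4 and 6 the difference was -0.23.

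Krt18, the partner of Krt8 in the filament, was 7.58, 7.34, 7.36, 7.39, 7.01, 7.002, 7.39 and 7.21 in tumoral 1 to 8, against 7.29, 7.28, 8.13, 7.997, 7.35, 8.09, 7.19 and 7.61 in peritumoral 1 to 8. The same 3 peritumoral arrays were high, and the other 5 lay within or just above the tumoral range. The means were 7.29 ± 0.20 in tumoral and 7.62 ± 0.40 in peritumoral arrays (SD, n = 8 each), a difference of -0.33 (SE 0.145). Without peritumoral 3, 4 and 6 it was -0.06.

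Krt7 and Krt19, keratins of ducts, airway and mesothelium among other epithelia, were high in peritumoral 4 alone. Krt19 had a lowest, median and highest value of 6.07, 6.46 and 7.002 in tumoral arrays, against 6.34, 6.75 and 9.18 in peritumoral arrays, where the next value below peritumoral 4 was 6.84. Its means were 6.51 ± 0.31 in tumoral and 6.97 ± 0.91 in peritumoral arrays (SD, n = 8 each), a difference of -0.46 (SE 0.306). Peritumoral 3 was the lowest peritumoral array for Krt19 at 6.34, although it was among the highest for Krt8 and Krt18. Without peritumoral 4 the Krt19 difference was -0.15.

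Krt7 had a lowest, median and highest value of 6.69, 6.92 and 7.24 in tumoral arrays, against 6.90, 7.13 and 8.50 in peritumoral arrays. The 8.50 was again peritumoral 4, with the next peritumoral value at 7.40, and the rest of the 2 groups overlapped. The means were 6.94 ± 0.19 in tumoral and 7.28 ± 0.52 in peritumoral arrays (SD, n = 8 each), a difference of -0.34 (SE 0.179), or -0.17 without peritumoral 4. The 4 keratins therefore fell into 2 pairs by array, Krt8 with Krt18 and Krt7 with Krt19, which share peritumoral 4 and differ in peritumoral 3 and 6.

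**Figure D1:**
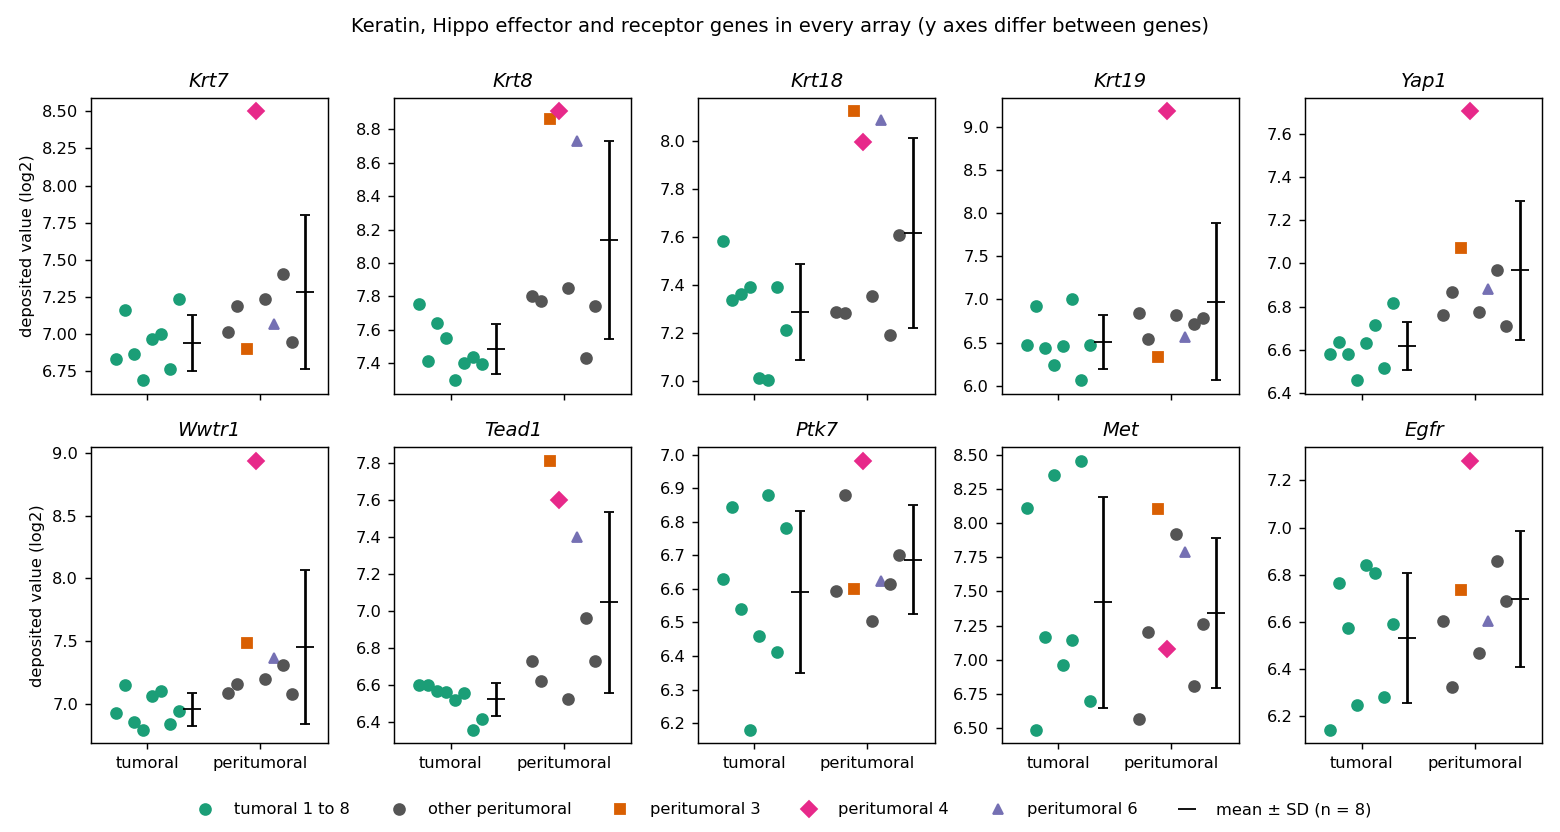
Deposited log2 value (y axis, a scale of its own for each gene) of the 10 genes in each tumoral array (left) and each peritumoral array (right), with peritumoral 3, 4 and 6 marked and the mean ± SD of each group (n = 8). Krt8, Krt18 and Tead1 are high in peritumoral 3, 4 and 6, Krt7, Krt19, Yap1 and Wwtr1 are high in peritumoral 4, and Met is spread widely in both groups.

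The Hippo effectors differed in the same way from one another. Wwtr1, which encodes TAZ, was 6.92, 7.15, 6.86, 6.79, 7.06, 7.10, 6.84 and 6.94 in tumoral 1 to 8, against 7.08, 7.16, 7.48, 8.94, 7.20, 7.37, 7.31 and 7.08 in peritumoral 1 to 8. Peritumoral 4 was far above all others, and 6 of 8 peritumoral arrays lay above every tumoral array. The means were 6.96 ± 0.13 in tumoral and 7.45 ± 0.62 in peritumoral arrays (SD, n = 8 each), a difference of -0.49 (SE 0.203), or -0.28 without peritumoral 4.

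Yap1 had a lowest, median and highest value of 6.46, 6.61 and 6.82 in tumoral arrays, against 6.71, 6.87 and 7.71 in peritumoral arrays, with peritumoral 4 highest and peritumoral 3 next at 7.07. It was above every tumoral array in 5 of 8 peritumoral arrays. The means were 6.62 ± 0.11 in tumoral and 6.97 ± 0.32 in peritumoral arrays (SD, n = 8 each), a difference of -0.35 (SE 0.114). Leaving out peritumoral 4 gave -0.24 and leaving out peritumoral 3, 4 and 6 gave -0.20, so a lower tumoral mean was left with or without the arrays that stood apart.

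Tead1, the DNA-binding partner, was 6.60, 6.60, 6.57, 6.56, 6.52, 6.56, 6.36 and 6.42 in tumoral 1 to 8, against 6.73, 6.62, 7.81, 7.60, 6.52, 7.40, 6.96 and 6.73 in peritumoral 1 to 8. It was high in peritumoral 3, 4 and 6 at similar levels, as Krt8 and Krt18 were. For its partner Wwtr1 peritumoral 3 and 6 were also the next arrays, and for Yap1 peritumoral 3 was, in each case at a distance below peritumoral 4. The tumoral arrays were the most uniform of any of the 10 genes, and 7 of 8 peritumoral arrays lay above all of them. The means were 6.52 ± 0.09 in tumoral and 7.05 ± 0.49 in peritumoral arrays (SD, n = 8 each), a difference of -0.52 (SE 0.162), or -0.19 without peritumoral 3, 4 and 6. The other Tead1 probe set had the same 3 arrays high, at 7.77, 7.57 and 7.35, and a difference of -0.48.

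The receptors showed little or no common direction. Met was 8.11, 6.49, 7.17, 8.35, 6.96, 7.14, 8.45 and 6.70 in tumoral 1 to 8, against 6.57, 7.20, 8.10, 7.08, 7.92, 7.79, 6.80 and 7.26 in peritumoral 1 to 8. Its values split within both groups: tumoral 1, 4 and 7 with peritumoral 3, 5 and 6 lay between 7.79 and 8.45, and the other 10 arrays between 6.49 and 7.26. Of these 6 high arrays, 5 are the ones that correlated across the labels over the most variable genes. The means were 7.42 ± 0.77 in tumoral and 7.34 ± 0.55 in peritumoral arrays (SD, n = 8 each), a difference of 0.08 (SE 0.302) that was smaller than the spread within either group. Without peritumoral 3, 4 and 6 it was 0.27, and without peritumoral 3 and 6 and tumoral 1, 4 and 7 it was -0.25.

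Egfr had a lowest, median and highest value of 6.14, 6.58 and 6.84 in tumoral arrays, against 6.33, 6.65 and 7.28 in peritumoral arrays. Peritumoral 4 was highest, and the 3 lowest tumoral values, 6.14, 6.25 and 6.28, were those of tumoral 1, 4 and 7, the arrays in which Met was highest. The means were 6.53 ± 0.27 in tumoral and 6.70 ± 0.29 in peritumoral arrays (SD, n = 8 each), a difference of -0.16 (SE 0.131), or -0.08 without peritumoral 4. Ptk7 had a lowest, median and highest value of 6.18, 6.58 and 6.88 in tumoral arrays, against 6.504, 6.62 and 6.98 in peritumoral arrays. The groups shared the stretch between 6.504 and 6.88, with 3 tumoral arrays below it and 1 peritumoral array above it, and had means of 6.59 ± 0.24 in tumoral and 6.69 ± 0.16 in peritumoral arrays (SD, n = 8 each), a difference of -0.10 (SE 0.099), or -0.05 without peritumoral 4.

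**Figure D2:**
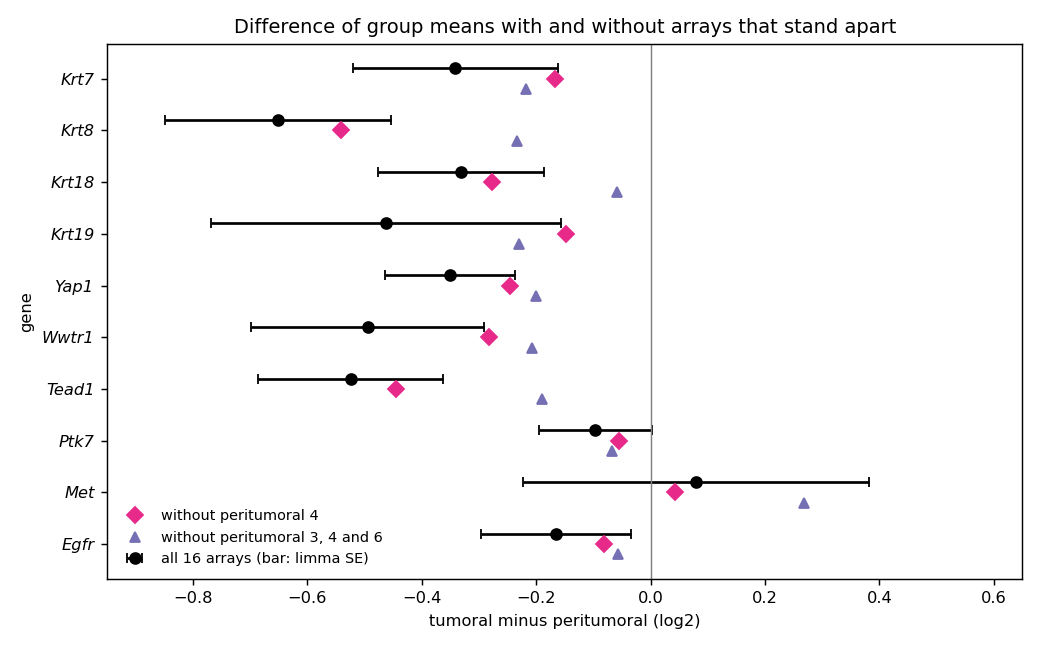
Difference of group means, tumoral minus peritumoral in log2 units (x axis), for the 10 genes (y axis), with all 16 arrays and limma's SE as the bar, without peritumoral 4, and without peritumoral 3, 4 and 6. Krt8, Krt18 and Tead1 move toward 0 mainly when peritumoral 3, 4 and 6 are left out, and Krt19 and Wwtr1 already without peritumoral 4. Met lies at 0.08 with all arrays and moves away from 0, to 0.27, without peritumoral 3, 4 and 6.

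Across the 10 genes, 9 had a lower tumoral mean and Met a higher one, with a median difference of -0.35, against 58.3% of all 19938 genes with a lower tumoral mean and a median of -0.02. None of the 10 genes passed limma's adjusted p under 0.05, and the share of all genes that did was 0% (smallest adjusted p 0.232). At an unadjusted p under 0.05 limma placed 5 of the 10 on the lower side, Krt8, Krt18, Yap1, Wwtr1 and Tead1, against 5.9% of all genes, and 0 of the 10 on the higher side, against 5.6%. In all 10 genes the groups overlapped; they did not overlap in 0.0853% of all genes. Because the genes were chosen with this contrast known, nothing is read from these shares. The intervals of the differences were wide: limma's 95% interval was -1.07 to -0.24 for Krt8, -0.86 to -0.18 for Tead1, -0.59 to -0.11 for Yap1 and -0.56 to 0.72 for Met.

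Most of the 10 genes had a larger SD in the peritumoral group, but without peritumoral 4 their count was near the share of all genes. The SD was larger in the peritumoral group in 8 of the 10 genes, all but Met and Ptk7, against 51.1% of all genes. Without peritumoral 4 it was larger in 5 of the 10, Krt8, Krt18, Tead1, Yap1 and Wwtr1, against 42.3% of all genes. Krt19 shows the size of that single array, with a peritumoral SD of 0.91 with peritumoral 4 and 0.19 without it.

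The shapes over arrays, chosen after the values were seen, can be set beside those of all genes. Peritumoral 3, 4 and 6 were all at least 0.25 above every other array in 51 of 19938 genes (0.256%), among them Krt8, Tead1 and Krt18. Ordered by the gap to the next array, Krt8 was 2nd (0.88), Tead1 15th and Krt18 22nd, and Dcn, which encodes the fibroblast proteoglycan decorin, was 1st (1.04). The others at the top were Farp1, Arhgap42, Myo10, Cald1, Hspb1, the basement membrane gene Nid1, Bmp1 and Fstl1, among which Myo10 and Cald1 encode a myosin and an actin-binding protein. Peritumoral 4 alone was at least 0.25 above every other array in 1549 genes (7.77%), among them Krt7, Krt19, Yap1, Wwtr1 and Egfr. The first shape asks for 3 high arrays and the second for a single one, so fewer genes can meet the first. The 2 shares are therefore not compared.

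Because the keratins and Met are used as markers of epithelial and carcinoma cells, marker lists of other cell types were read in the same arrays. In peritumoral 3 and 6, where Krt8, Krt18 and Tead1 were high, the mean level of 21 lung epithelial genes was 6.87 and 6.94, the lowest of the peritumoral arrays, with tumoral arrays at 6.81 to 7.47. The defining genes of alveolar type II and club cells were likewise low there, Sftpc at 7.03 and 6.99 and Scgb1a1 at 7.42 and 7.51, and Epcam was 6.54 and 6.34. The endothelial mean was 6.999 and 7.11, below the other peritumoral arrays, the mesothelial mean was 6.10 and 6.11, within their range, and Cdh5 was 7.19 and 7.40. Dcn was high in these 2 arrays, at 10.05 and 9.94, while the mean of 13 fibroblast genes was 7.24 and 7.20. Cdh1 (E-cadherin, also made by some dendritic cells) was 9.63 and 9.45 there, with peritumoral 2 close to them at 9.41. The Cdh1 means were 8.37 ± 0.73 in tumoral and 8.90 ± 0.64 in peritumoral arrays (SD, n = 8 each).

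In peritumoral 4 the picture was different. The lung epithelial mean was 9.02 there, with 6.87 to 7.79 in the other peritumoral arrays. The mesothelial mean was 7.59, with 5.82 to 6.23 in tumoral arrays and 6.06 to 6.39 in the other peritumoral arrays. The fibroblast mean was 9.14, with 6.58 to 7.03 in tumoral arrays and 7.09 to 7.56 in the other peritumoral arrays. Single defining genes followed, with Sftpc at 12.81, Scgb1a1 at 13.06, Cdh5 at 12.09, Dcn at 11.41 and Msln at 7.52, whereas Epcam was 6.96 and Cdh1 8.89. The list of 12 genes of the sorted cells was lowest there, at 10.64, against 10.96 to 11.28 in tumoral arrays and 10.81 to 11.25 in the other peritumoral arrays. All 21 lung epithelial, 8 mesothelial, 13 endothelial and 13 fibroblast genes had a lower tumoral mean, with 0 called. Without peritumoral 4 this held for 21, 8, 12 and 12 of them, and the median differences, -0.32, -0.30, -0.80 and -0.37 with all arrays, were -0.12, -0.16, -0.40 and -0.28. Without peritumoral 3, 4 and 6 the medians of these lists were -0.28, -0.18, -0.51 and -0.21. The part of these cell types in the levels of the 10 genes was not tested. Since no array of LLC cells was analysed here, the part of carcinoma RNA was not tested either.

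**Figure D3:**
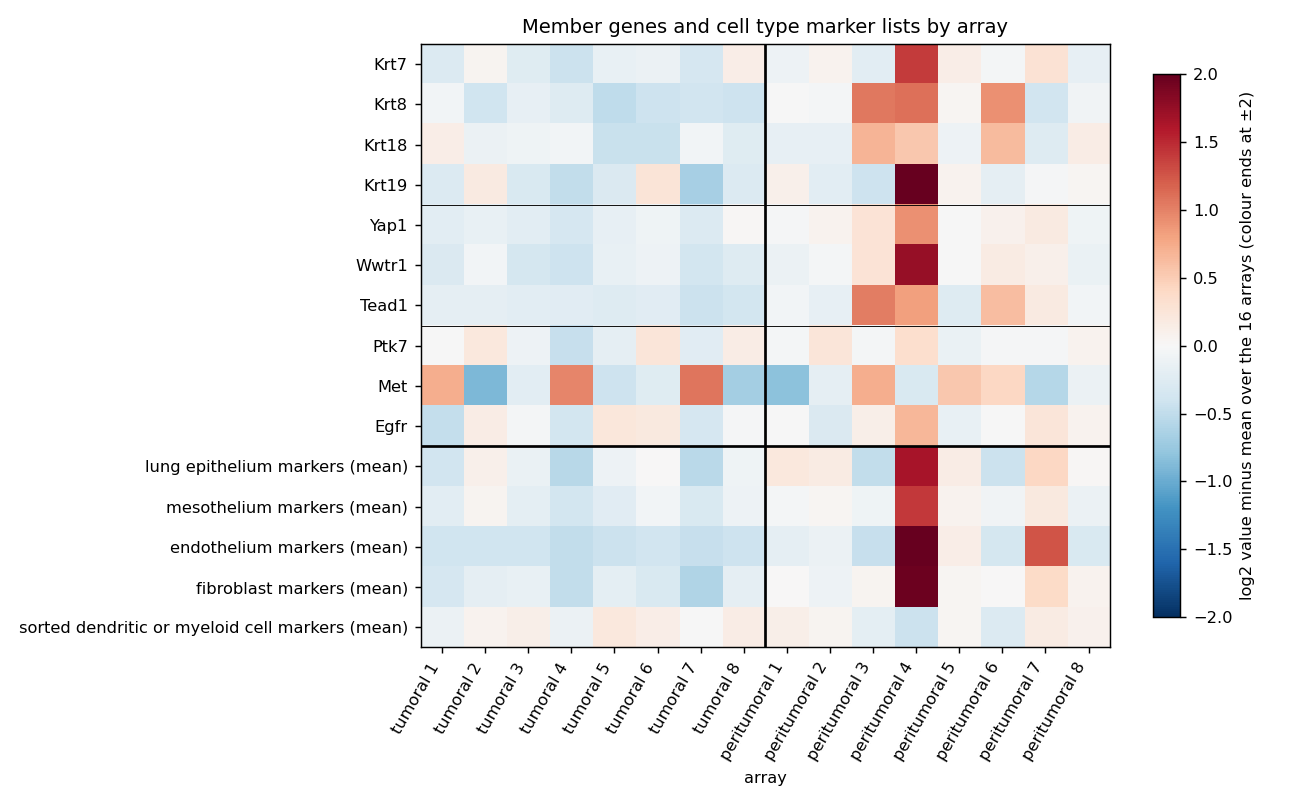
Log2 value minus its mean over the 16 arrays, by colour (ending at ±2), for the 10 genes and for the mean of 5 cell type marker lists (rows) in tumoral 1 to 8 (left) and peritumoral 1 to 8 (right). Krt8, Krt18 and Tead1 are high in peritumoral 3, 4 and 6, the lung epithelial, mesothelial, endothelial and fibroblast lists are high in peritumoral 4, and Met is high in tumoral 1, 4 and 7 and in peritumoral 3, 5 and 6.

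Whether the genes varied together between arrays was examined over their 45 pairs. Pairs with Krt8, Krt18, Tead1 or Met have no pooled coefficient here, since their arrays fall into separate clusters. The closest pair was Yap1 with Wwtr1 (Pearson r = 0.96, Spearman rho = 0.91 over 16 arrays, permutation p adjusted over the 45 pairs 0.00045 for each, from 1e-05, the smallest that 100000 resamples can give). Without peritumoral 3 and 4, the arrays farthest from the Yap1 median, r was 0.84, and without peritumoral 3, 4 and 6 it was 0.82. Within tumoral arrays r was 0.58 and within peritumoral arrays 0.98, and after centring each array on its median the tumoral value was 0.02.

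Krt7 also went with both effectors in the 13 arrays other than peritumoral 3, 4 and 6, which were set aside after the values were seen, with r = 0.91 and rho = 0.93 for Yap1 (permutation p of rho adjusted over 45 pairs 0.0009) and r = 0.84 and rho = 0.87 for Wwtr1 (adjusted permutation p of rho 0.00562). Krt7 with Krt19 had r = 0.92 and rho = 0.68 over all 16 arrays, with adjusted permutation p-values of 0.00535 and 0.0295, but r = 0.59 without peritumoral 4 and 7 and r = 0.55 and rho = 0.56 in the 13 arrays (adjusted permutation p 0.118 and 0.166). Within tumoral arrays the same pair had r = 0.62 and rho = 0.69 (adjusted exact p 0.219 and 0.136, n = 8). Within tumoral arrays, where none of these 3 arrays takes part, Krt8 and Krt18 still went together (r = 0.81, rho = 0.86, exact adjusted p 0.0755 and 0.0532, n = 8), short of the threshold of 0.05. In the 13 arrays their r was 0.62, and that of Krt8 with Tead1 was 0.23. Pairs that passed by rho in tumoral arrays were Krt7 with Yap1 (0.95), Krt19 with Ptk7 (0.93), Krt7 with Met (-0.93) and Krt18 with Egfr (-0.95). Each had an adjusted exact p of rho of 0.0251. After centring arrays on their medians, r for these pairs was 0.72, 0.73, -0.84 and -0.92. Met is split within these arrays, with tumoral 1, 4 and 7 high. The same arrays were the highest tumoral arrays for Krt18 and the lowest for Egfr and Krt7. Tumoral 4 and 7 were also the lowest for Yap1, Krt19 and Ptk7. These coefficients therefore in part restate 1 split of the tumoral arrays and are not separate results.

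The level of the whole array moved with several of these genes, and it was set beside the pairs. Centring each array on its median left r at 0.95 for Yap1 with Wwtr1 and 0.91 for Krt7 with Krt19 over 16 arrays, and at 0.86 for Krt7 with Yap1 in the 13 arrays. For Krt7 with Krt19, however, centring took r from 0.55 to 0.36 in the 13 arrays and from 0.62 to 0.37 within tumoral arrays. For Krt7 with Wwtr1 it took r from 0.84 to 0.76 and from 0.71 to 0.37. Over 16 arrays the array median correlated with Ptk7 at r = 0.90 (rho = 0.81, permutation p adjusted over the 10 genes 1e-04 and 0.001), with Krt19 at r = 0.68 (rho = 0.84, adjusted permutation p 0.00115 and 0.001) and with Krt7 at r = 0.68 (rho = 0.74, adjusted permutation p 0.00237 and 0.00463). Leaving out peritumoral 4 and tumoral 4, the arrays with the highest and the lowest median, gave r = 0.82 for Ptk7, 0.76 for Krt19 and 0.59 for Krt7. For Yap1 and Wwtr1 the same step gave 0.22 and 0.25. Within the 8 tumoral arrays, however, r with the array median was 0.72 for Yap1 and 0.90 for Wwtr1 (adjusted exact p 0.0596 and 0.0118). It was -0.85 there for Met (exact permutation p adjusted over the 10 genes 0.0183), -0.41 for Krt8, -0.46 for Krt18 and 0.27 for Tead1 (adjusted exact p 0.347, 0.319 and 0.524).

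**Figure D4:**
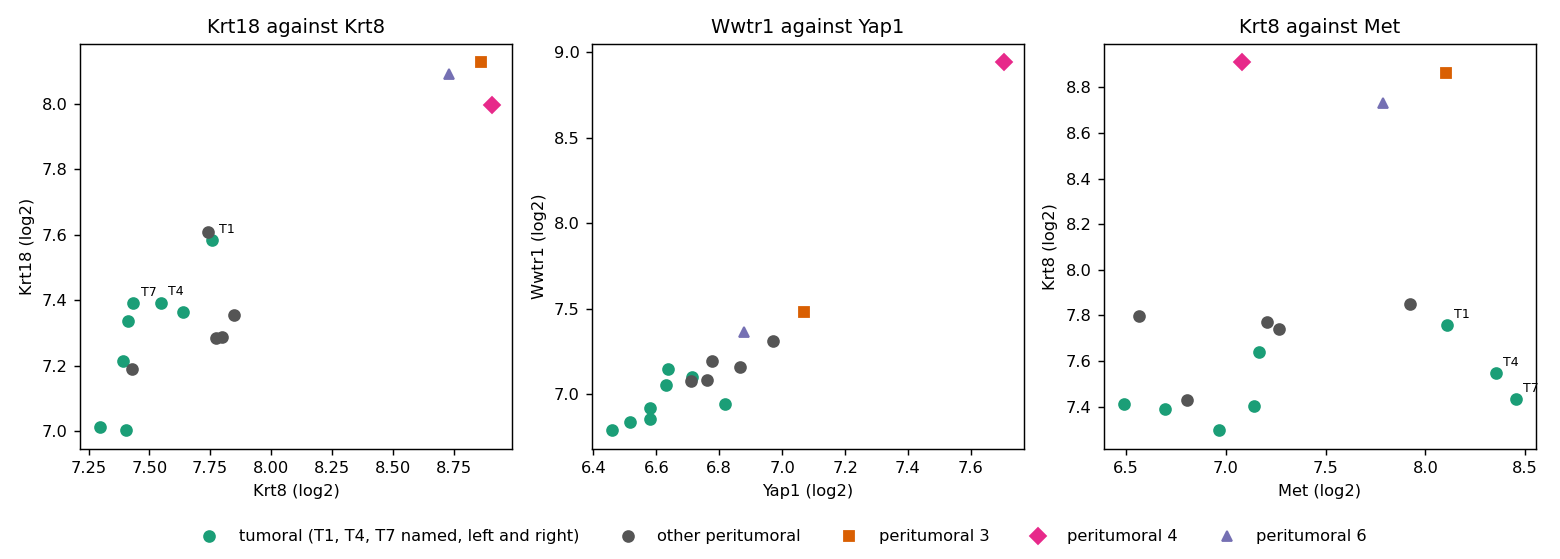
Log2 values of Krt18 against Krt8, Wwtr1 against Yap1 and Krt8 against Met, 1 point per array, with tumoral arrays, peritumoral 3, 4 and 6 and the other peritumoral arrays marked. Peritumoral 3, 4 and 6 form a group of their own for Krt8 and Krt18, and a single array (peritumoral 4) lies apart for Yap1 and Wwtr1. Tumoral 1, 4 and 7 are high for Met without reaching the Krt8 values of peritumoral 3, 4 and 6. Tumoral 1 has the highest Krt8 value of the tumoral arrays.

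The other genes of the pathway had median differences nearer to 0. Of 21 tested Hippo kinases and upstream or TEAD-level regulators, 15 had a lower and 6 a higher tumoral mean, with a median difference of -0.08 and 0 called. The named ones were Tead2, a paralogue of Tead1, at 6.36 ± 0.15 in tumoral and 6.67 ± 0.12 in peritumoral arrays (SD, n = 8 each), a difference of -0.31 that shares limma's smallest adjusted p of 0.232, the angiomotin family member Amotl1 at -0.39, the Kibra family member Wwc2 at -0.19, and the kinase Lats1, which phosphorylates YAP and TAZ, at 0.25. Without peritumoral 3, 4 and 6 the Tead2 difference was -0.25, beside -0.19 for Tead1. Without peritumoral 4 alone, Amotl1 differed by -0.25 and Wwc2 by -0.12.

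Of 18 tested YAP and TAZ target genes, 13 had a lower and 5 a higher tumoral mean, with 0 called. Their median difference was -0.13, or -0.06 without peritumoral 4 and -0.13 without peritumoral 3, 4 and 6. Their mean level was 7.81 to 7.91 in tumoral arrays and 7.85 to 8.55 in peritumoral arrays, of which peritumoral 4 was the highest and the next was 8.03. The textbook targets Ccn1 and Ccn2, secreted matricellular proteins, differed by -0.80 and -0.46, and by -0.43 and -0.19 without peritumoral 4, in which they reached 11.25 and 9.59. Igfbp3, a binding protein of insulin-like growth factors, differed by -0.42 and Arhgef17 by -0.28, or by -0.19 and -0.19 without peritumoral 4. In peritumoral 3 and 6, where Tead1 was 7.81 and 7.40, the list's mean was 7.98 and 7.92, Ccn1 was 8.76 and 8.11, and Ccn2 was 7.44 and 7.43.

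Of 21 tested partners and ligands of Ptk7, Met and Egfr, 16 had a lower and 5 a higher tumoral mean, with a median difference of -0.04 and 0 called. Hgf, the ligand of Met, averaged 8.18 ± 0.45 in tumoral and 7.90 ± 0.20 in peritumoral arrays (SD, n = 8 each), a difference of 0.28. The Wnt receptor Ryk and the polarity protein Vangl2 differed by -0.46 and -0.25, or by -0.27 and -0.17 without peritumoral 4, and Erbb4, a relative of Egfr, differed by -0.18 with and without it. Among 48 other keratin genes, 33 had a lower and 15 a higher tumoral mean, with a median difference of -0.05 and 0 called. Their mean level was 5.87 to 6.29 in tumoral and 6.05 to 6.26 in peritumoral arrays, with peritumoral 3, 4 and 6 at 6.05, 6.12 and 6.10. The named ones, Krt222, Krt6b, Krt42 and Krt24, differed by -0.16, -0.29, -0.15 and -0.13, and the high values in peritumoral 3, 4 and 6 were not seen in the mean of this list.

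The genes whose values followed the 10 genes most closely were found over the same 16 arrays by Spearman's rho, as a description. For the mean of the 4 keratins they were Ppic, Kdelr3, Lhfp, Hspg2 and Tulp3 (rho 0.90 to 0.91), each of which had peritumoral 4 highest. For the mean of Yap1, Wwtr1 and Tead1 they were Phldb2, Fam171a1, Aebp1, Arhgef17 and Epn2 (rho 0.94 to 0.96), and Arhgef17 is also on the target list. For the mean of the 3 receptors they were Plekha3, Klf7, Gpat3, Prkar1a and Wipi1 (rho 0.91 to 0.93). These follow that mean and not each receptor. Met had the widest spread of the 3, with an SD of 0.77 in tumoral and 0.55 in peritumoral arrays. In tumoral arrays Met had a negative r with Ptk7 and Egfr (r = -0.71 and -0.87, adjusted exact permutation p 0.157 and 0.0755, n = 8), short of the threshold of 0.05. There the array median had r = 0.92 with Ptk7, 0.77 with Egfr and -0.85 with Met. After centring arrays on their medians, r of Met with Ptk7 and Egfr was -0.66 and -0.80. Leaving out the 2 arrays farthest from the median of each mean, Pearson's r was 0.85 to 0.93 for the keratin neighbours, 0.78 to 0.94 for those of the effectors and 0.79 to 0.90 for those of the receptors.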

How the data were processed

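RNA from the sorted cells was purified with miRNeasy columns, converted with the Ambion WT kit and labelled for Affymetrix whole-transcript arrays, per the labels' protocols. The deposited table holds 28853 probe sets and 16 arrays in 1 processed value each, taken as log2 expression from its range of 2.31 to 14.33. How the authors corrected and normalized these values, and their log base, was not stated in the sources used here. Neither scanner files nor detection calls nor scan batches were used, and the number of arrays limits the precision.

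The platform annotation lists 1 symbol for 21789 probe sets, several for 1621 and none for 5443. The single-symbol probe set with the highest mean was kept for each of 19938 genes, and RefSeq (GRCm38.p6) changed 0 symbols. Arrays were grouped by title, and limma 3.58.1 in R 4.3.3 (lmFit, eBayes, label only, no filter) gave the difference tumoral minus peritumoral and p-values adjusted over all genes by Benjamini-Hochberg, at a threshold of 0.05. Since no label names an animal, a p-value covers only the spread among these samples, part of which may be technical. limma was tested on simulated data. Arrays with equal replicate numbers were compared by their deviations from group means over the 2000 most variable genes. Of 8 such pairs, 0 had a correlation over 0.1. Arrays that stood apart shape these correlations as well, so the check cannot settle whether arrays are paired by animal.

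The 10 genes, the pathway and marker lists and the tests were chosen with earlier results of these data known. From each of 4 pathway lists the 4 genes with the smallest p are named, and for each mean the 5 genes with the highest Spearman rho; of each marker list the 2 brightest genes and the defining genes are named; Farp1, Arhgap42, Myo10, Cald1, Hspb1, Nid1, Bmp1 and Fstl1 were named after their values were seen. Alternatives were 3 scalings (quantile, cyclic loess, array medians), the replicate number as a fixed or random block, the brighter genes alone, a trended robust prior, array weights, averaged probe sets, a rank-sum test, and leaving out each array, peritumoral 4 and 7, or peritumoral 7 and 8. Leaving out peritumoral 3, 4 and 6, or peritumoral 3 and 6 with tumoral 1, 4 and 7, was chosen after seeing the data.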

Additional observations from a re-analysis of the deposited data

Results flagged for a closer look

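In each group of 8 arrays the highest and lowest values were examined with Dixon's test (gap to the nearest array over the range of the group), which chance passes in about 1 in 20 groups. Of 46 groups examined, 12 had an array beyond it, and all 12 times it was peritumoral 4, the highest array. These values are not independent, since they come from 1 array.

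Among the genes described, peritumoral 4 stood apart for Krt7 (8.50, with the nearest peritumoral array at 7.40), Krt19 (9.18, nearest 6.84), Yap1 (7.71, nearest 7.07) and Wwtr1 (8.94, nearest 7.48), and for the mean of the 4 keratins (8.65, nearest 7.61). Krt8, Krt18 and Tead1 had no single array apart, because peritumoral 3 and 6 lay beside peritumoral 4.

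Among the marker lists, the mean level of peritumoral 4 stood apart for lung epithelium (9.02, nearest 7.79), mesothelium (7.59, nearest 6.39), endothelium (10.86, nearest 8.72), fibroblasts (9.14, nearest 7.56), smooth muscle (7.03, nearest 6.68), B cells (9.10, nearest 7.32) and alveolar macrophages (9.21, nearest 8.38). The part of these cell types in the levels of Krt7, Krt19, Yap1 and Wwtr1 was not tested.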

How the results depend on the processing

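Of 30 alternatives, 26 gave 0 genes past the threshold, as all arrays did (limma; 2292 genes at an unadjusted p under 0.05, and 2283 by the rank-sum test, which called 0). With each array left out in turn the count was 0 to 128, with 128 without peritumoral 7 and 20 without peritumoral 8. It was 88 without peritumoral 4 and 7 and 522 without peritumoral 7 and 8. In that last setting 1 of the 10 genes passed, Krt8, with a difference of -0.84 and a limma adjusted p of 0.0279 (range over its alternatives 0.0279 to 0.773); the cause was not tested. The replicate number as a block gave 0 genes and 0 of the 10, and changed no call. Of 295 values for the 10 genes, 286 kept their sign and their side of the threshold. Met changed sign in 7 settings, to -0.0184, -0.0538 and -0.0682 without tumoral 1, 4 or 7, -0.0314 without peritumoral 1 (range with 1 array left out -0.0682 to 0.21), -0.0538 without peritumoral 4 and 7, -0.0228 without peritumoral 7 and 8, and -0.25 without peritumoral 3 and 6 and tumoral 1, 4 and 7. Egfr changed sign in that last setting, to 0.0108; the cause was not tested. The other 8 genes stayed lower in tumoral arrays in every setting run, from -0.01 (Ptk7) to -0.84 (Krt8). Testing the brighter 9969 genes alone left out Krt19, Yap1, Tead1, Ptk7 and Egfr. Another scaling moved the median of all genes by less than 0.1, from -0.02 to between -0.00413 (cyclic loess) and 0.03 (array medians).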

Other observations

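The other marker lists were read in the same arrays. All 6 tested T cell genes and all 6 smooth muscle genes had a lower tumoral mean, as did 5 of 6 B cell, 9 of 10 neutrophil and 6 of 8 alveolar macrophage genes, with 0 called in each list. Without peritumoral 4 a lower tumoral mean held for 5 of 6 T cell, 6 of 6 smooth muscle, 2 of 6 B cell, 9 of 10 neutrophil and 4 of 8 alveolar macrophage genes, and the median difference of the B cell genes turned to 0.08, against -0.25 with all arrays. The T cell mean was 6.23 to 6.94 in tumoral and 6.26 to 8.49 in peritumoral arrays, and the neutrophil mean was 5.76 to 6.61 in tumoral and 5.93 to 7.48 in peritumoral arrays. The B cell mean was 6.60 to 7.47 in tumoral and 6.51 to 9.10 in peritumoral arrays, and the alveolar macrophage mean was 7.72 to 8.31 in tumoral and 7.66 to 9.21 in peritumoral arrays. The smooth muscle mean was 6.29 to 6.51 in tumoral and 6.44 to 7.03 in peritumoral arrays. Peritumoral 4 was the highest array for all 5 lists.

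The 2 brightest genes of each list are given with all arrays and without peritumoral 4. Calcrl and Eng (endothelium) differed by -0.79 and -0.41 with all arrays and by -0.40 and -0.11 without it. Sparc and Bgn (fibroblasts) differed by -1.16 and -0.94 and, without it, by -0.76 and -0.53. Acta2 and Myh11 (smooth muscle) differed by -0.19 and -0.13 and, without it, by -0.00335 and -0.10. Scgb1a1 and Sftpc (lung epithelium) differed by -0.96 and -0.59 and, without it, by -0.59 and -0.12. Wt1 and Rspo1 (mesothelium) differed by -0.14 and -0.17 and, without it, by -0.07 and -0.11.

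Among genes of other leukocytes, Cd2 and Cd5 (T cells) differed by -0.16 and -0.37 and, without peritumoral 4, by 0.10 and -0.28. Cd79b (B cells) differed by -0.41 and, without it, by -0.15, and Cd22, the other B cell gene, averaged 8.34 in both groups with all arrays. Lcn2 and S100a9 (neutrophils) differed by -1.25 and -0.58 and, without it, by -0.95 and -0.31. Fabp5 and Pparg (alveolar macrophages) differed by 0.40 and -0.07 and, without it, by 0.25 and 0.00373. Cd74, the brightest gene of the sorted cells beside H2-Ab1, differed by 0.02 with all arrays. None of these genes passed limma's adjusted threshold with all arrays.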
